A study of Mus musculus with 24 samples.

Results

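The genes described here are 48 protein-coding genes of mitosis and of the step from G2 into mitosis, chosen by name from a list of mitotic kinases, cyclins, kinesins, kinetochore, spindle checkpoint and cytokinesis genes. The choice was made with earlier results of these data known, so shares among these genes and among all genes are set side by side as description only. The genes are 48 of the 36528 gene rows in each library. All 48 passed the filter on low counts, which left 17468 genes. PolyA RNA was sequenced from cells sorted by FACS from mouse small intestine tumours. Sample names carry EpCAM, which marks epithelial cells, with a sort given as bulk. Every mouse tumour, the controls included, carried the genotype AKVPL, whose letters are not spelled out in the labels and are not expanded here. The tumours had received diphtheria toxin (DT), with the purpose of removing cells that express the stem cell receptor Lgr5, or saline as the control, and were collected 24, 48 or 96 h later. Each of the 6 groups (saline at 24 h, DT at 24 h, saline at 48 h, DT at 48 h, saline at 96 h and DT at 96 h) held 4 libraries. The sources used here do not give the allele that makes Lgr5+ cells sensitive to the toxin, the age of the animals, or whether libraries came from separate animals. The p-values therefore measure the spread between these libraries, which may be partly technical. The libraries of 48 h are numbered apart from those of 24 and 96 h in the sample records. Whether they were also prepared or sequenced apart is not given. Where 48 h is compared with another time, time and such a difference cannot be told apart.

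Entry into mitosis is driven by the kinase Cdk1 once it is bound to cyclin A or cyclin B and has been dephosphorylated by Cdc25 phosphatases. Polo-like and Aurora kinases then build the spindle, kinetochores attach chromosomes to it, and a checkpoint holds the cell until the attachments are made. The anaphase-promoting complex with Cdc20 lets the chromosomes part before the cell is cleaved. The genes of these proteins are transcribed together late in the cell cycle, under the MuvB complex with B-Myb and Foxm1. Their RNA is abundant in dividing crypt and tumour cells and scarce in cells that have stopped dividing.

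The libraries held 10888654 to 27707554 counts, of which the 48 genes took 0.0868% to 0.283%. Lgr5 itself lay between 179 and 217 CPM (counts per 1000000 counts of the library, scaled by TMM) in saline and between 77.0 and 84.9 CPM in DT libraries at 24 h, and its change was -1.30 ± 0.12 on the log2 scale (SE, adjusted p = 4.44e-08). Its change was -0.60 ± 0.12 at 48 h (adjusted p = 0.00272), where the groups overlapped (164 to 198 CPM in saline and 95.4 to 171 CPM in DT libraries). At 96 h it was -0.43 ± 0.12 (adjusted p = 0.0447; 152 to 182 CPM in saline and 123 to 135 CPM in DT libraries). On the first principal component of all tested genes (28.4% of the variance) the saline libraries lay between -26.7 and -17.2 and 3 of the DT libraries at 48 h between 18.4 and 30.9. The remaining DT library at 48 h, replicate 3, stood apart from these at -2.97, and results at 48 h are therefore also given without it. A further DT library at 48 h, replicate 1, differed from its group by transcript length, as described with the genes it touches.

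At 24 h all 48 genes were higher in DT than in saline libraries, when 19.9% of tested genes were called higher. A gene was called where edgeR's quasi-likelihood test gave an adjusted p under 0.05 (Benjamini-Hochberg, over all genes tested). In the libraries themselves every DT value lay above every saline value for each of the 48 genes, a separation that 18.1% of tested genes showed. The median log2 fold change was 1.28, a 2.43-fold rise, with a range from 0.72 (Cks2) to 1.76 (Spc24). Of the 48, 41 rose by at least 2-fold, against 3.66% of all genes tested. The median over all genes tested was 0.00. At 48 h 40 of the 48 were called higher and 0 lower (4.83% of tested genes were called higher), with a median of 0.50, a 1.41-fold difference. At 96 h 29 were called higher and 0 lower (1.01% of tested genes were called higher), with a median of 0.44, a 1.36-fold difference. Every DT library lay above every saline library for 39 genes at 48 h (7.16% of tested genes did so) and for 39 genes at 96 h (4.91% of tested genes). Of the 48 genes, 26 were called at all 3 times, 14 at 24 and 48 h only, 3 at 24 and 96 h only (Mki67, Espl1 and Cenpf) and 5 at 24 h only (Cks2, Mad2l1, Spc25, Knl1 and Kif14).

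**Figure D1:**
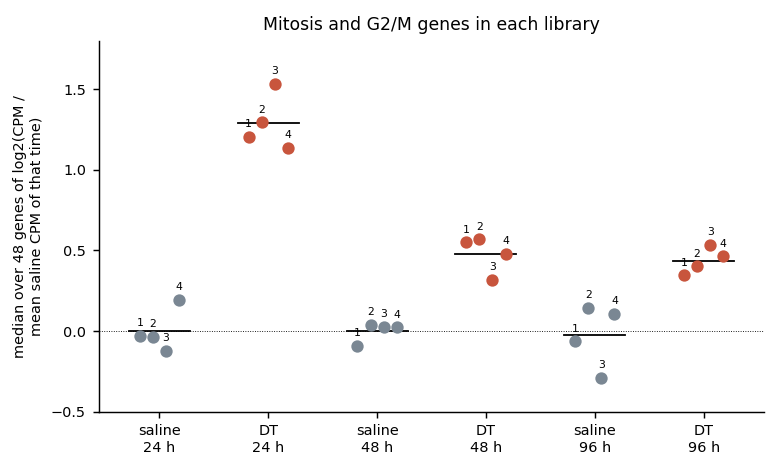
Median over the 48 genes of the log2 ratio of CPM to the mean saline CPM of the same time (vertical axis) for each library (points, numbered by replicate) in the 6 groups (horizontal axis), with lines at group means. The 4 DT libraries at 24 h sit between 1.14 and 1.53, those at 48 h between 0.32 and 0.57 and those at 96 h between 0.35 and 0.53, above every saline library of the same time.

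The change was shared by the libraries of a group, as the plot of library medians shows. Taken as the median over the 48 genes of the log2 ratio to the mean saline level of the same time, the DT libraries at 24 h had 1.20, 1.29, 1.53 and 1.14, and the saline libraries -0.03, -0.04, -0.12 and 0.19. At 48 h the DT libraries had 0.55, 0.57, 0.32 and 0.48, and at 96 h 0.35, 0.40, 0.53 and 0.46. The lowest DT library at 48 h was replicate 3, the one that stood apart on the first principal component, and it was the lowest of its group for 33 of the 48 genes. Without it 42 of the 48 were called at 48 h, with a median of 0.57. Libraries also moved as a whole within groups: DT replicate 3 was the highest at 24 h for 41 of the 48 genes, and saline replicate 3 was the lowest at 96 h for 42. The count at 96 h depended on single libraries: it was 9 without saline replicate 3, 13 without saline replicate 1, and 12 without DT replicate 2 or DT replicate 4. Of the 29 calls at 96 h, 8 were kept in every fit with 1 library left out. These were Ccnb2, Cenpa, Cenpe, Cenpf, Kif11, Kif22, Kif23 and Top2a. In bulk RNA a larger share of dividing cells and more of this RNA per dividing cell cannot be told apart.

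**Figure D2:**
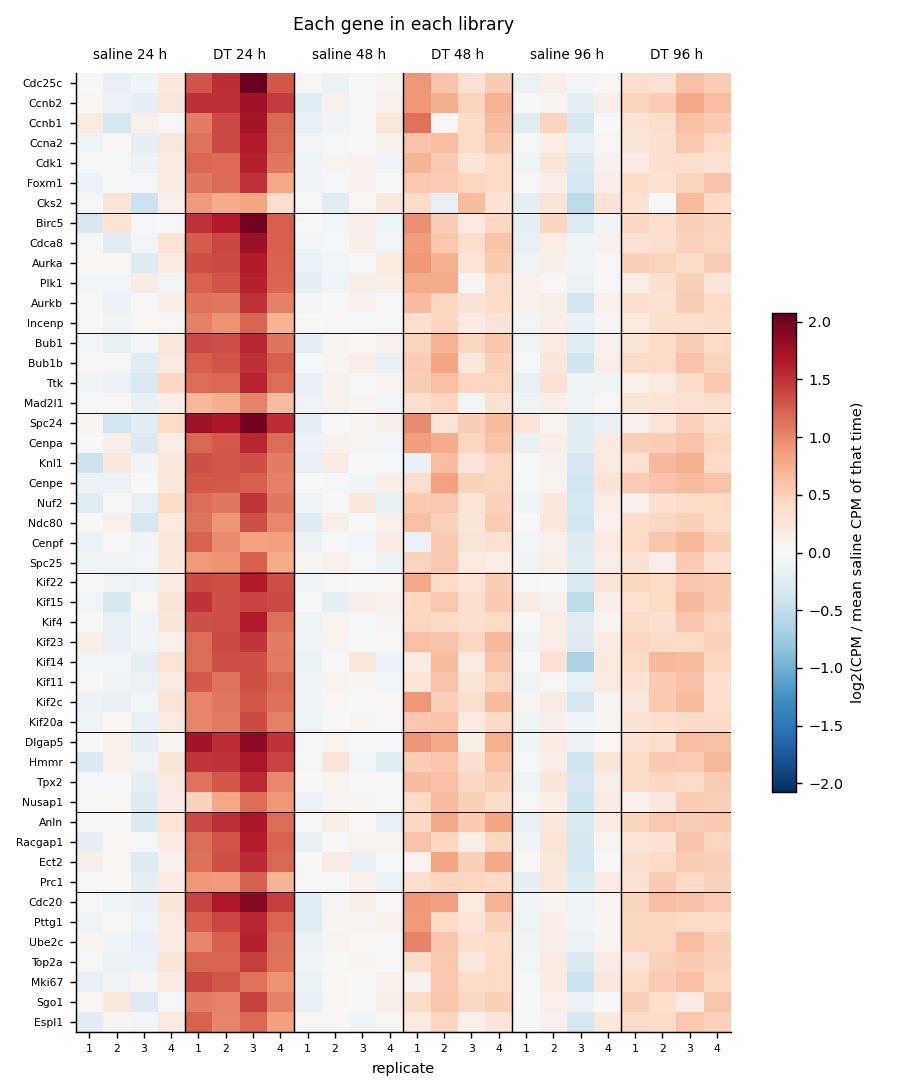
Colour gives the log2 ratio of CPM to the mean saline CPM of the same time for each of the 48 genes (rows, grouped by function in the order of the text and by size of change at 24 h within a group) in each of the 24 libraries (columns, numbered by replicate within the 6 groups). Every DT column at 24 h is red throughout, the DT columns at 48 and 96 h are paler, and saline replicate 3 at 96 h is mostly blue.

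The promoters of these genes often hold the 2 short elements by which MuvB and the factor NF-Y are known to bind late cell cycle genes. Windows of 250 bases before the annotated start were searched on both strands for the cell cycle homology region, or CHR (written as TTTGAA, as its variant TTCGAA or as the palindrome TTTAAA), and for the CCAAT box (CCAAT), in a RefSeq promoter table of GRCm38.p6 that held 39 of the 48 genes. A CHR word stood in the windows of 20 of the 39 genes (51.3%), against 29.3% of 27025 genes. Some genes had several annotated starts, and a gene was counted where any of its windows held the word. A CCAAT word stood in those of 28 (71.8%, against 37.5%), and both stood in the same window for 17 (43.6%, against 10.6%). E2F words of the S phase type (TTTCCCGC, TTTGGCGC or TTTGCCGC) stood in those of 1 (2.56%, against 1.89%). These exact words are longer than the CHR and CCAAT words and leave out other forms of the site. A low count of them therefore cannot show that E2F sites are absent. The 4 stretches printed are those of the genes with the smallest p at 24 h that hold both elements, from different function groups. Each runs 5′ to 3′ on the gene's strand from 10 bases before its first element to the base before the start, with both elements in capitals. They are chr9:70421555-70421731 on the minus strand, chr19:37376327-37376381 on the plus strand, chr4:118437344-118437406 on the minus strand and chr5:30666767-30666885 on the plus strand of GRCm38.p6. The last stretch, that of Cenpa, runs just past 30666877, where the gene span given below begins, so its annotated start is a different one.

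Ccnb2: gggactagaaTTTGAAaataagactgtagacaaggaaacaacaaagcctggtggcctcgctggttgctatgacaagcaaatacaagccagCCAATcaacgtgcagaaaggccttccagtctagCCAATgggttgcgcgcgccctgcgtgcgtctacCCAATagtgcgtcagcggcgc
Kif11: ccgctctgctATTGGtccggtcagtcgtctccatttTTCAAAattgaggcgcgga
Cdc20: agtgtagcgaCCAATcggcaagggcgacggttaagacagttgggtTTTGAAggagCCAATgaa
Cenpa: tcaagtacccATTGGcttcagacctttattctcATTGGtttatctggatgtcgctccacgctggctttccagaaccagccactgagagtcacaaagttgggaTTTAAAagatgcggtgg

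In the mitotic cyclin gene Ccnb2 the CHR word began 167 bases before the start and was followed by 3 CCAAT words that began 87, 54 and 21 bases before it. The Cdc20 stretch carried a CHR word that began 18 bases before the start, with a CCAAT word on each side of it. In the kinesin gene Kif11 both elements read on the opposite strand (the CCAAT word as ATTGG and the CHR word as TTCAAA), as did both CCAAT words of the centromere histone gene Cenpa, whose TTTAAA reads alike on both strands. These matches describe the letters in the windows only, and binding was not measured.

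Among the cyclins, Cdk1 and their regulators all 7 genes rose at 24 h (median 1.34), 6 were called at 48 h (median 0.56) and 3 at 96 h (Ccna2, Ccnb2 and Foxm1; median 0.44). Ccnb2, a B-type cyclin that partners Cdk1 (Entrez gene 12442, chromosome 9, 70407689 to 70421554, on GRCm38 as for the genes that follow), had the smallest p of the group at 24 h. At that time its values were 22.6, 20.2, 19.0 and 25.9 CPM in saline and 63.0, 63.1, 73.3 and 60.1 CPM in DT libraries. At 48 h they were 19.3, 24.0, 22.8 and 24.2 CPM in saline and 42.3, 38.0, 31.3 and 37.4 CPM in DT libraries. Ccnb2 had 19.2, 19.8, 16.7 and 20.8 CPM under saline and 26.2, 27.6, 33.0 and 29.9 CPM under DT at 96 h. The DT libraries lay above all saline libraries at each time, most widely at 24 h, and DT replicate 3 was the highest of its group at 24 and 96 h and the lowest at 48 h. With its standard error after ±, as for all fold changes here, the log2 fold change was 1.57 ± 0.11 (adjusted p = 6.02e-10) at 24 h, 0.72 ± 0.10 (adjusted p = 0.000159) at 48 h and 0.60 ± 0.11 (adjusted p = 0.00153) at 96 h. Cdk1, the kinase itself, rose by 1.29 ± 0.12 at 24 h and by 0.49 ± 0.11 at 48 h, and was 0.30 and not called at 96 h (adjusted p = 0.184). Cdc25c, the phosphatase that activates Cdk1, rose by 1.60 ± 0.16, Ccna2, cyclin A, by 1.34 ± 0.11 and Foxm1, a transcription factor for these genes, by 1.17 ± 0.12 at 24 h.

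Cks2, a small protein that binds Cdk1 (Entrez gene 66197, chromosome 13, 51645232 to 51650662), changed least of the 48 genes at 24 h and was the only one in this group not called at 48 h. Its values at 24 h were 1.67, 2.10, 1.27 and 1.85 CPM in saline and 3.17, 2.95, 3.03 and 2.20 CPM in DT libraries, and its log2 fold change was 0.72 ± 0.21 (adjusted p = 0.00941). The groups did not overlap at 24 h, but the lowest DT value, in replicate 4, lay just above the highest saline value, and the call was lost without saline replicate 3 (adjusted p = 0.0529). At 48 h the values were 1.66, 1.45, 1.76 and 1.98 CPM in saline and 2.22, 1.52, 2.68 and 2.11 CPM in DT libraries. Cks2 had 1.76, 2.42, 1.38 and 2.45 CPM under saline and 2.50, 2.01, 3.17 and 2.63 CPM under DT at 96 h, and the groups overlapped at both times. Ccnb1, the other B-type cyclin, was called at 24 h (1.37 ± 0.21, adjusted p = 1.54e-05) and at 48 h (0.63 ± 0.21, adjusted p = 0.0491), but 1 DT library at 48 h overlapped the saline libraries (5.71, 2.69, 3.42 and 4.14 CPM, against 2.32, 2.48, 2.60 and 3.07 CPM). Both genes share much sequence with pseudogenes. Of the 50-base words in the longest coding transcript, 42.1% of those of Ccnb1 and 29.7% of those of Cks2 also occur in transcripts of other genes. A count of uniquely aligned reads could miss part of this RNA. Kif20a (31.2%), Prc1 (26.6%), Ube2c (17.8%), Kif4 (16.2%) and Ccna2 (15.9%) share such words with genes that overlap them, and the counting is not stated to use strand, so their counts are uncertain in the same way.

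**Figure D3:**
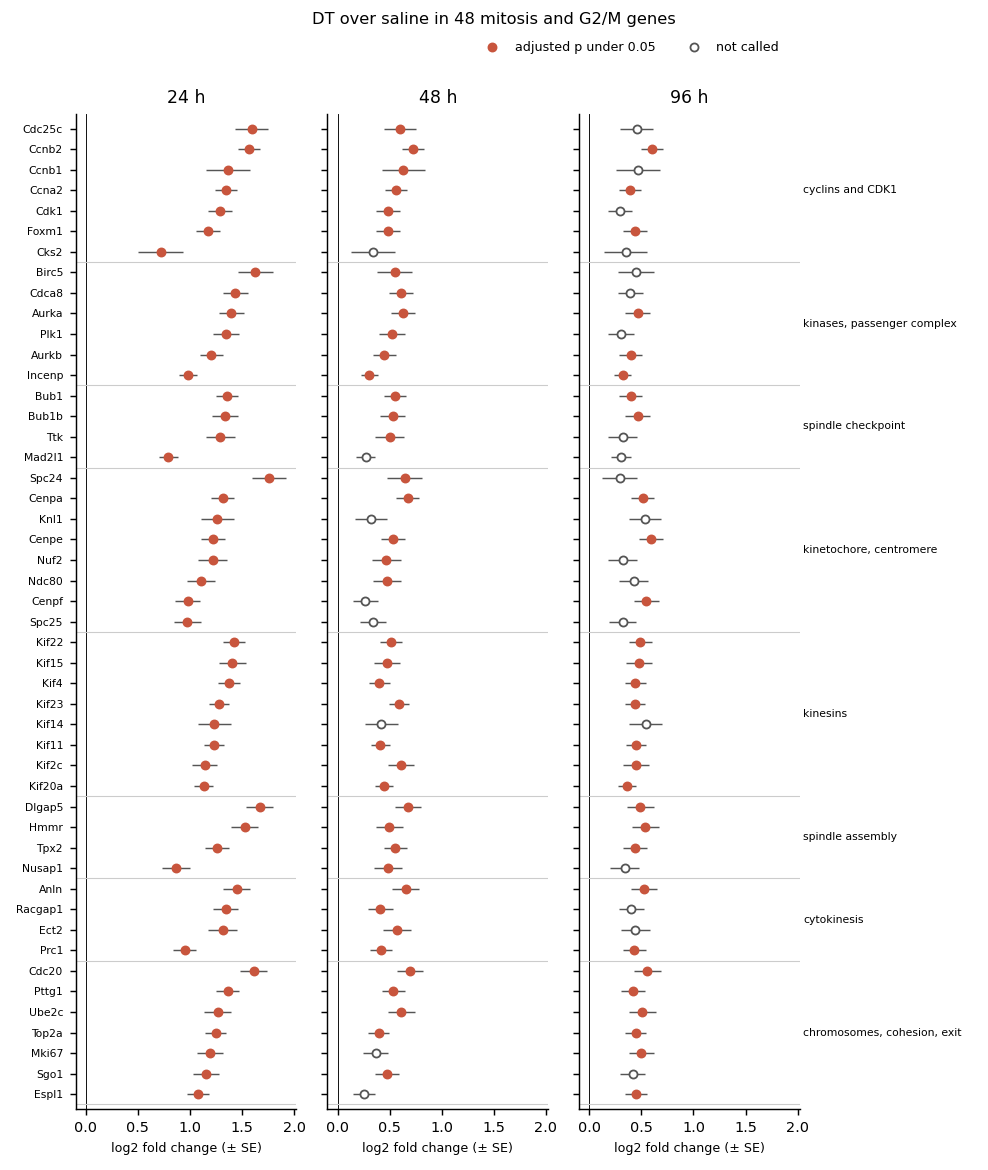
Log2 fold change of DT over saline (horizontal axis; points with bars of 1 SE) for each of the 48 genes (rows, in function groups) at 24, 48 and 96 h (panels), filled where the adjusted p was under 0.05 and open elsewhere. At 24 h all points are filled and lie between 0.72 and 1.76, and at 48 and 96 h all lie between 0.25 and 0.72.

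The mitotic kinases and the chromosomal passenger complex, in which Aurora B is held by Incenp, survivin (Birc5) and borealin (Cdca8), all rose at 24 h (6 of 6, median 1.37) and at 48 h (6 of 6, median 0.54). At 96 h 3 of the 6 were called (Aurka, Aurkb and Incenp), and the median of the 6 was 0.40. With 1 library left out, these calls held in 2 of 8 fits for Aurka, 0 for Aurkb and 3 for Incenp. The call of Birc5 at 48 h held in 2 of 8 such fits. Cdca8 (Entrez gene 52276, chromosome 4, 124918465 to 124936917) had the smallest p at 24 h, with 17.8, 15.1, 17.3 and 21.8 CPM in saline and 43.2, 46.9, 61.3 and 42.7 CPM in DT libraries. At 48 h its values were 19.0, 19.4, 21.3 and 18.9 CPM in saline and 35.7, 28.8, 25.4 and 29.6 CPM in DT libraries. Cdca8 had 15.9, 19.9, 16.9 and 19.0 CPM under saline and 22.1, 22.7, 24.9 and 24.5 CPM under DT at 96 h. The DT libraries were above the saline libraries at every time, with DT replicate 3 highest at 24 h and lowest at 48 h. The log2 fold change of Cdca8 was 1.44 ± 0.12 (adjusted p = 7.38e-09) at 24 h, 0.61 ± 0.12 (adjusted p = 0.00179) at 48 h and 0.40 ± 0.12 (adjusted p = 0.0680) at 96 h, so that the difference at 96 h missed the threshold. Birc5 changed most in the group at 24 h (1.63 ± 0.17), ahead of Aurka, the kinase of spindle poles (1.40 ± 0.12), and Plk1, the polo-like kinase (1.35 ± 0.13). Aurkb rose by 1.21 ± 0.11 and Incenp by 0.98 ± 0.08, the smallest change of the complex. At 48 h Plk1 was called (0.53 ± 0.13, adjusted p = 0.00803) although its DT values, 48.8, 49.0, 29.9 and 37.7 CPM, overlapped the saline values, 25.3, 27.0, 31.3 and 31.2 CPM, through DT replicate 3.

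The spindle checkpoint genes rose at 24 h (4 of 4, median 1.31), and 3 were called at 48 h (all but Mad2l1; median 0.51) and 2 at 96 h (Bub1 and Bub1b; median 0.36). Bub1, a checkpoint kinase at kinetochores (Entrez gene 12235, chromosome 2, 127800197 to 127831859), had 16.2, 15.2, 16.2 and 19.97 CPM in saline and 43.9, 42.6, 50.1 and 36.5 CPM in DT libraries at 24 h. At 48 h it had 15.2, 18.1, 17.8 and 18.4 CPM in saline and 23.9, 28.6, 23.5 and 25.9 CPM in DT libraries. Bub1 had 15.7, 18.8, 13.9 and 17.8 CPM under saline and 19.7, 22.0, 23.5 and 22.1 CPM under DT at 96 h. The groups did not overlap at any time, and the narrowest gap was at 96 h, between saline replicate 2 and DT replicate 1. Its log2 fold change was 1.36 ± 0.11 (adjusted p = 3.17e-09) at 24 h, 0.55 ± 0.11 (adjusted p = 0.00160) at 48 h and 0.40 ± 0.11 (adjusted p = 0.0363) at 96 h. Bub1b, which makes the BubR1 subunit of the checkpoint's inhibitory complex, rose by 1.34 ± 0.12 at 24 h, and Ttk, the kinase that starts checkpoint signalling, by 1.29 ± 0.14. The calls of Bub1 and Bub1b at 96 h each held in 2 of 8 fits with 1 library left out. Mad2l1, which makes Mad2, the protein that blocks Cdc20, rose by 0.79 ± 0.09 at 24 h, less than the other 3. Mad2l1 was not called at 48 h (0.27 ± 0.09, adjusted p = 0.0632) or at 96 h (0.30 ± 0.09, adjusted p = 0.0727). At 48 h it was called without DT replicate 3 (adjusted p = 0.00534) and in 2 of 8 other settings (upper quartile scaling and limma voom), and at 96 h in 4 of 8 other settings.

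At kinetochores and centromeres 8 of 8 genes rose at 24 h (median 1.22), 5 were called at 48 h (all but Spc25, Knl1 and Cenpf; median 0.47) and 3 at 96 h (Cenpa, Cenpe and Cenpf; median 0.47). Cenpa, the histone variant that marks the centromere (Entrez gene 12615, chromosome 5, 30666877 to 30674837), had the smallest p at 24 h, with 19.6, 21.6, 16.0 and 21.9 CPM in saline and 45.4, 47.8, 58.8 and 44.4 CPM in DT libraries. Later values were 19.0, 22.1, 21.6 and 19.8 CPM in saline and 37.6, 35.1, 28.03 and 31.2 CPM in DT libraries at 48 h. Cenpa had 17.0, 20.7, 16.2 and 21.4 CPM under saline and 26.6, 26.7, 28.3 and 25.6 CPM under DT at 96 h. No DT library of Cenpa fell into the saline range at any time. Its log2 fold change was 1.31 ± 0.11 (adjusted p = 9.00e-09) at 24 h, 0.68 ± 0.11 (adjusted p = 0.000474) at 48 h and 0.51 ± 0.11 (adjusted p = 0.00920) at 96 h.

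Spc24, a subunit of the Ndc80 complex that couples kinetochores to microtubules (Entrez gene 67629, chromosome 9, 21755434 to 21760446), had the largest change of the 48 genes at 24 h, a 3.38-fold rise (1.76 ± 0.17, adjusted p = 3.24e-08). Its values at 24 h were 4.79, 3.52, 3.95 and 6.17 CPM in saline and 15.7, 14.7, 18.6 and 13.3 CPM in DT libraries. At 48 h they were 4.26, 4.86, 5.09 and 5.31 CPM in saline and 9.67, 5.91, 6.97 and 7.67 CPM in DT libraries. Spc24 had 5.69, 4.98, 3.96 and 4.23 CPM under saline and 5.00, 5.70, 6.59 and 6.10 CPM under DT at 96 h. The groups lay far apart at 24 h, whereas at 96 h DT replicate 1 lay inside the saline range and the other 3 just above it (0.29 ± 0.17, adjusted p = 0.448). The other subunits of the complex changed by less at 24 h: Nuf2 by 1.22 ± 0.14, Ndc80 by 1.10 ± 0.13 and Spc25 by 0.97 ± 0.13. Knl1, the scaffold that recruits Bub1 to kinetochores, rose by 1.26 ± 0.16 at 24 h and was not called later (0.32 ± 0.15, adjusted p = 0.182 at 48 h and 0.53 ± 0.15, adjusted p = 0.0529 at 96 h).

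Cenpe, a kinesin of kinetochores that carries chromosomes to the middle of the spindle (Entrez gene 229841, chromosome 3, 135212563 to 135273540), was among the 3 genes with the smallest p at 96 h. At 24 h its values were 19.3, 19.2, 21.1 and 24.7 CPM in saline and 51.5, 51.1, 49.97 and 43.7 CPM in DT libraries. They were 23.6, 23.0, 22.3 and 26.1 CPM in saline and 30.5, 42.3, 33.0 and 32.2 CPM in DT libraries at 48 h. Cenpe had 21.1, 22.8, 16.3 and 26.1 CPM under saline and 31.0, 32.6, 34.1 and 32.5 CPM under DT at 96 h. The DT libraries at 96 h were close together and above all saline libraries, of which replicate 3 was low. The log2 fold change was 1.22 ± 0.11 (adjusted p = 2.77e-08) at 24 h, 0.53 ± 0.11 (adjusted p = 0.00339) at 48 h and 0.59 ± 0.11 (adjusted p = 0.00295) at 96 h. Cenpf, a large protein of the outer kinetochore, was called at 24 h (0.98 ± 0.12) and at 96 h (0.55 ± 0.12) but not at 48 h (0.27 ± 0.12, adjusted p = 0.161).

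The 8 kinesins rose at 24 h (8 of 8, median 1.26), and 7 of the 8, all but Kif14, were called at both later times (median 0.46 at 48 h and 0.45 at 96 h). Kif23, the motor of the centralspindlin complex at the cell's midzone (Entrez gene 71819, chromosome 9, 61917277 to 61946810), had the smallest p of the group at 24 h, with 28.9, 23.7, 25.3 and 28.7 CPM in saline and 59.7, 68.1, 74.6 and 55.8 CPM in DT libraries. Its values at 48 h were 29.9, 33.4, 31.5 and 32.0 CPM in saline and 49.1, 48.1, 42.8 and 50.9 CPM in DT libraries. Kif23 had 27.2, 32.4, 24.3 and 33.1 CPM under saline and 40.0, 38.4, 38.9 and 40.9 CPM under DT at 96 h. Saline and DT libraries of Kif23 did not overlap, and the 4 DT libraries at 96 h differed little among themselves. The log2 fold change was 1.28 ± 0.10 (adjusted p = 1.79e-09) at 24 h, 0.59 ± 0.09 (adjusted p = 0.000350) at 48 h and 0.44 ± 0.09 (adjusted p = 0.00832) at 96 h.

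Kif11, the motor that pushes spindle poles apart (Entrez gene 16551, chromosome 19, 37376382 to 37421863), had a smaller difference at 48 h than most kinesins but one of the 3 smallest p at 96 h. Its values were 20.96, 19.4, 18.8 and 23.5 CPM in saline and 50.2, 45.3, 51.7 and 46.7 CPM in DT libraries at 24 h. At 48 h they were 21.2, 23.8, 23.7 and 21.9 CPM in saline and 27.7, 34.2, 27.4 and 31.3 CPM in DT libraries. Kif11 had 20.4, 22.3, 19.5 and 25.2 CPM under saline and 26.9, 31.8, 33.2 and 27.5 CPM under DT at 96 h. DT values exceeded all saline values at each time, and at 96 h saline replicate 4 and DT replicate 1 came closest. Its log2 fold change was 1.23 ± 0.09 (adjusted p = 2.04e-09) at 24 h, 0.41 ± 0.09 (adjusted p = 0.00524) at 48 h and 0.45 ± 0.09 (adjusted p = 0.00573) at 96 h. The chromosome-arm kinesins Kif22 and Kif4 rose by 1.42 ± 0.11 and 1.38 ± 0.10 at 24 h, and Kif15, a motor that works beside Kif11, by 1.41 ± 0.13. Kif2c, which depolymerizes microtubules and corrects attachments, rose by 1.14 ± 0.12 at 24 h and 0.61 ± 0.12 at 48 h, and Kif20a, a motor needed for cytokinesis, by 1.13 ± 0.09 and 0.45 ± 0.09. Kif14, which also acts in cytokinesis, rose by 1.24 ± 0.16 at 24 h and was 0.42 ± 0.16 (adjusted p = 0.0861) at 48 h and 0.54 ± 0.16 (adjusted p = 0.0533) at 96 h.

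The 4 spindle assembly genes rose at 24 h (median 1.39) and at 48 h (median 0.53), and 3 were called at 96 h (all but Nusap1; median 0.46). Dlgap5, whose protein bundles spindle fibres near the chromosomes (Entrez gene 218977, chromosome 14, 47387779 to 47418407), had 10.8, 11.5, 9.38 and 11.1 CPM in saline and 35.6, 31.1, 39.2 and 30.4 CPM in DT libraries at 24 h. At 48 h its values were 12.9, 13.5, 12.9 and 12.9 CPM in saline and 24.6, 22.9, 14.2 and 21.9 CPM in DT libraries. Dlgap5 had 11.1, 13.3, 10.9 and 12.2 CPM under saline and 14.9, 15.3, 18.6 and 18.3 CPM under DT at 96 h. At 48 h DT replicate 3 was close to the saline libraries while the other 3 were well above them. The log2 fold change was 1.67 ± 0.13 (adjusted p = 2.77e-09) at 24 h, 0.68 ± 0.13 (adjusted p = 0.00127) at 48 h and 0.49 ± 0.13 (adjusted p = 0.0326) at 96 h. Hmmr, a spindle-binding protein, rose by 1.53 ± 0.13 at 24 h, and Tpx2, the activator of Aurora A, by 1.26 ± 0.11. Nusap1, a protein that stabilizes microtubules near chromosomes (Entrez gene 108907, chromosome 2, 119618298 to 119650165), changed least of the 4. Its values at 24 h were 14.9, 15.1, 12.1 and 16.5 CPM in saline and 20.4, 25.5, 32.9 and 27.4 CPM in DT libraries. At 48 h they were 13.6, 15.3, 15.5 and 14.9 CPM and 19.7, 23.3, 20.9 and 19.2 CPM in the same order. Nusap1 had 14.2, 15.5, 10.5 and 15.7 CPM under saline and 14.9, 16.4, 20.2 and 19.8 CPM under DT at 96 h. The groups of Nusap1 overlapped at 96 h only, where its log2 fold change was 0.34 ± 0.14 (adjusted p = 0.204).

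**Figure D4:**
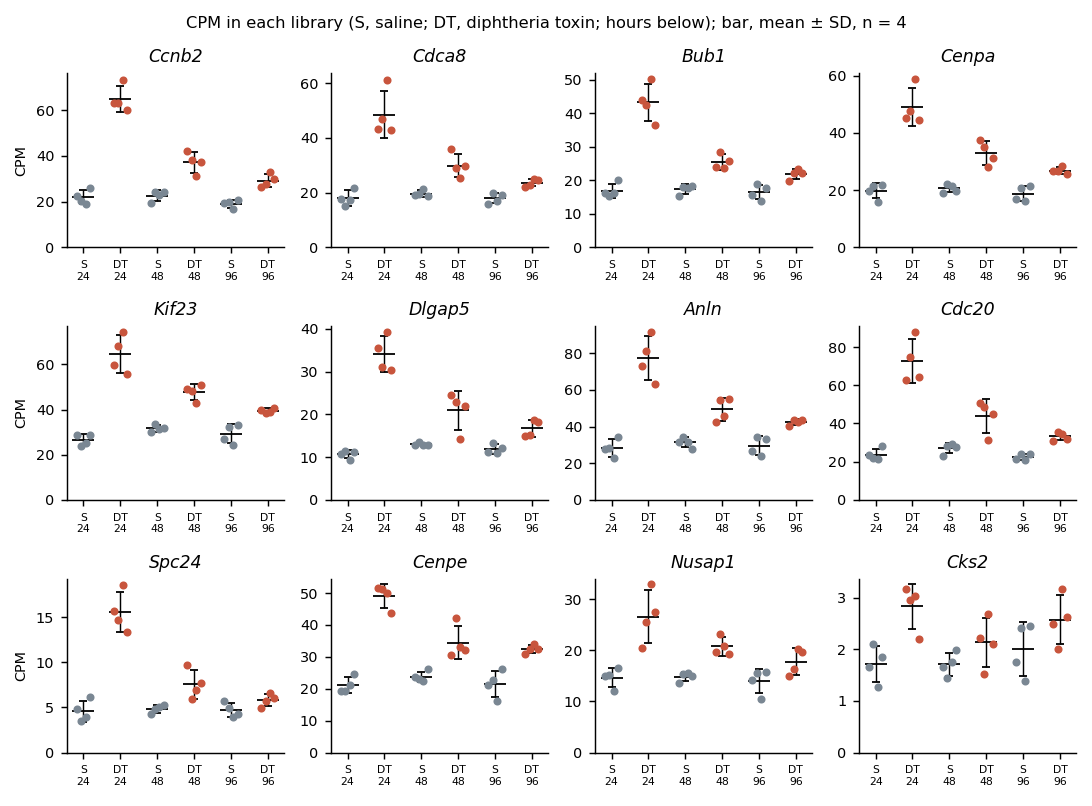
CPM (vertical axis, from 0) in each library (points) of the 6 groups (horizontal axis; S, saline) for 12 genes described in full, with mean and SD of 4 libraries. DT values at 24 h lie above all other values in each panel except those of Nusap1 and Cks2, and for Cks2 saline and DT overlap at 48 and 96 h.

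The 4 cytokinesis genes rose at 24 h (median 1.33) and at 48 h (median 0.49), and Anln and Prc1 were called at 96 h (median of the 4 0.44). Anln, the anillin that organizes the contractile ring (Entrez gene 68743, chromosome 9, 22331214 to 22389211), had 27.6, 28.1, 23.1 and 34.5 CPM in saline and 73.1, 81.2, 91.4 and 63.0 CPM in DT libraries at 24 h. At 48 h its values were 31.5, 34.4, 31.7 and 27.8 CPM in saline and 42.3, 54.4, 45.7 and 55.1 CPM in DT libraries. Anln had 26.5, 34.3, 24.1 and 33.4 CPM under saline and 40.6, 43.7, 42.3 and 43.7 CPM under DT at 96 h. DT libraries stood above saline libraries throughout, and among saline libraries at 96 h replicates 1 and 3 were lower than the others. The log2 fold change was 1.45 ± 0.13 (adjusted p = 1.43e-08) at 24 h, 0.65 ± 0.13 (adjusted p = 0.00168) at 48 h and 0.53 ± 0.13 (adjusted p = 0.0188) at 96 h. Racgap1, the partner of Kif23 in centralspindlin, rose by 1.34 ± 0.12 at 24 h. Ect2, which switches on RhoA at the cleavage plane, rose by 1.31 ± 0.14 and Prc1, which bundles midzone microtubules, by 0.95 ± 0.11. Ect2 was called at 48 h (0.57 ± 0.14, adjusted p = 0.00847) with DT values of 38.4, 63.9, 51.2 and 62.5 CPM and saline values of 36.7, 40.8, 32.4 and 35.5 CPM, which overlapped through DT replicate 1.

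Of the genes for chromosome structure, cohesion and the exit from mitosis 7 of 7 rose at 24 h (median 1.25), 5 were called at 48 h (all but Mki67 and Espl1; median 0.47) and 6 at 96 h (all but Sgo1; median 0.45). Cdc20, the activator of the anaphase-promoting complex (Entrez gene 107995, chromosome 4, 118432901 to 118437343), had 23.3, 22.0, 21.4 and 28.2 CPM in saline and 63.0, 75.02, 87.7 and 64.2 CPM in DT libraries at 24 h. At 48 h its values were 23.1, 28.3, 29.5 and 27.6 CPM in saline and 50.6, 48.7, 31.2 and 44.8 CPM in DT libraries. Cdc20 had 21.6, 23.9, 21.04 and 23.8 CPM under saline and 30.9, 35.4, 34.6 and 32.1 CPM under DT at 96 h. At 48 h the DT values did not overlap the saline values, and replicate 3 was the nearest to them. The log2 fold change was 1.61 ± 0.13 (adjusted p = 3.62e-09) at 24 h, 0.69 ± 0.13 (adjusted p = 0.00104) at 48 h and 0.56 ± 0.13 (adjusted p = 0.0130) at 96 h. Pttg1, the securin that holds separase inactive, rose by 1.36 ± 0.11 at 24 h and its target Espl1, the separase, by 1.08 ± 0.11. Ube2c, the ubiquitin-conjugating enzyme of the anaphase-promoting complex, rose by 1.27 ± 0.13, Top2a, the topoisomerase that untangles sister chromatids, by 1.25 ± 0.10 and Sgo1, which guards centromeric cohesion, by 1.15 ± 0.12. Mki67, the source of the Ki-67 proliferation antigen, had 98.4, 105, 115 and 125 CPM in saline and 286, 272, 242 and 212 CPM in DT libraries at 24 h (1.19 ± 0.12, adjusted p = 1.12e-07). At 48 h its values were 117, 132, 128 and 138 CPM in saline and 138, 189, 167 and 172 CPM in DT libraries, and DT replicate 1 lay at the upper edge of the saline range (0.37 ± 0.12, adjusted p = 0.0505).

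The difference from saline was smaller at the later times than at 24 h, by interaction tests of the same fit. From 24 to 48 h it fell for 40 of the 48 genes, when 2.34% of tested genes were called lower, with a median change of -0.79. From 24 to 96 h it fell for 45 (7.82% of tested genes were called lower), with a median change of -0.86. Spc24 changed most, by -1.11 ± 0.23 (adjusted p = 0.00823) from 24 to 48 h and by -1.47 ± 0.24 (adjusted p = 0.000415) from 24 to 96 h. Kif11 changed by -0.82 ± 0.13 (adjusted p = 0.00108) and -0.78 ± 0.13 (adjusted p = 0.000516) and Ccnb2 by -0.84 ± 0.15 (adjusted p = 0.00218) and -0.96 ± 0.15 (adjusted p = 0.000309). Cks2 (-0.38 ± 0.30, adjusted p = 0.620 and -0.37 ± 0.30, adjusted p = 0.467) and Nusap1 (-0.38 ± 0.19, adjusted p = 0.348 and -0.53 ± 0.19, adjusted p = 0.0781) were the genes with neither change called. Ccnb1, Ube2c, Prc1, Kif2c, Ndc80 and Spc25 also missed the threshold from 24 to 48 h, and Cenpf from 24 to 96 h. Between 48 and 96 h the difference changed for 0 of 48 genes, when 0.00572% of tested genes were called in either direction. That count was 0 at an unadjusted p under 0.05 with edgeR, 0 with DESeq2 and 0 with limma voom. The change had a median of -0.09 and a range from -0.35 (Spc24) to 0.28 (Cenpf). These comparisons share the libraries of each time, so their counts are not independent.

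Saline libraries of different times were compared for the same 48 genes. From 24 to 48 h 0 of the 48 changed in saline by edgeR (10 at an unadjusted p under 0.05, all higher at 48 h; 0.355% of tested genes were called in either direction), with a median log2 difference of 0.15. In that comparison 1 was called higher with limma voom, 1 with the compared libraries alone and 0 with DESeq2. From 24 to 96 h 0 changed in saline by edgeR (0 at an unadjusted p under 0.05, 0 with DESeq2 and 0 with limma voom; 3.22% of tested genes were called in either direction), with a median of 0.05. Among DT libraries 46 of the 48 were lower at 48 h than at 24 h (11.7% of tested genes were called lower), with a median of -0.63. Further, 47 were lower at 96 h than at 24 h (20.9% were called lower), with a median of -0.83. The exceptions were Cks2 at both times (-0.40 ± 0.20, adjusted p = 0.177 and -0.15 ± 0.20, adjusted p = 0.582) and Nusap1 at 48 h (-0.37 ± 0.13, adjusted p = 0.0541).

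At 48 h the 8 genes that were not called included the 3 with the longest transcripts (Cenpf, Mki67 and Kif14). The longest coding transcript had a median of 7678.5 bases for the 8 and 3144 bases for the 40 that were called. The 8 also included short ones, Cks2 (692 bases, the shortest of the 48) and Spc25 (1527 bases), and the long Cenpe (7910 bases) was called. In DT replicate 1 of that time the deviation of a gene from its group mean was correlated with log2 transcript length, with r = -0.61 across the 48 genes and r = -0.38 across 15680 genes. In DT replicate 2 r was 0.60 across the 48 genes and 0.15 across all of them. Deviations from a group mean cancel out over the 4 libraries of the group, so these values are not independent of each other. Libraries of other times had such values too. In DT replicate 3 at 24 h r was -0.44 across the 48 genes and -0.13 across all. In DT replicate 2 at 96 h the 2 values were 0.45 and 0.06. Genes are not independent replicates, and these values only describe the libraries. Without DT replicate 1 the difference at 48 h was 0.45 for Mki67 (adjusted p = 0.0267), 0.38 for Cenpf (adjusted p = 0.0335), 0.46 for Knl1 (adjusted p = 0.0529), 0.50 for Kif14 (adjusted p = 0.0646) and 0.27 for Espl1 (adjusted p = 0.170), each above its value with all libraries. It was 0.25 for Mad2l1 (adjusted p = 0.135), 0.30 for Spc25 (adjusted p = 0.202) and 0.33 for Cks2 (adjusted p = 0.455), each below it. The longest coding transcript of Mad2l1 (7557 bases) is longer than its RefSeq gene span (chromosome 6, 66535221 to 66541107). The gene model counted for Mad2l1 may therefore be shorter, and the median length of the 8 genes rests partly on this value. Without DT replicate 3 Mad2l1 (adjusted p = 0.00534) and Kif14 (adjusted p = 0.0468) were called instead. In all 35 of the 48 genes were called without DT replicate 1. The part of transcript length in the calls at 48 h was not tested further.

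Levels per transcript length were compared with the authors' normalized RPKM, as group means. At 24 h Top2a was highest in both groups (18.3 in saline and 43.6 in DT libraries), and Kif14 lowest (0.532 and 1.25). Ube2c followed in saline with 15.1, then Mad2l1 with 15.0, Ccnb2 with 12.6 and Cdc20 with 11.8. In DT libraries Ccnb2 (37.5), Cdc20 (36.2) and Ube2c (36.2) came next after Top2a, and Mad2l1 (26.0) was ninth in the order. At 96 h Top2a, with 26.4 in DT libraries, was again ahead of Ube2c (20.8), Ccnb2 (16.9) and Cdc20 (16.6). Ube2c, Ccnb2 and Cdc20 differed by less than their spread between DT libraries at 24 h, so their order there is not resolved. Ccnb1 stood low at 0.961 in saline at 24 h, beside the shared pseudogene sequence noted for it.

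Other cell cycle genes, in 7 lists, were set beside the 48. Of 26 further spindle and cytokinesis genes 21 rose and 0 fell at 24 h, 11 were higher at 48 h and 8 at 96 h, with medians of 0.86, 0.31 and 0.36. Iqgap3, a scaffold protein, changed by 1.39 ± 0.10 (adjusted p = 1.47e-09) and Ckap2, a spindle protein, by 1.20 ± 0.10 (adjusted p = 6.30e-09) at 24 h. Of 34 further kinetochore and checkpoint genes 25 rose at 24 h, 6 at 48 h and 1 at 96 h and 0 fell (medians 0.75, 0.24 and 0.20). In this list Trip13, an ATPase that recycles Mad2, changed by 1.23 ± 0.11 (adjusted p = 1.27e-08) and Zwilch, a kinetochore subunit, by 1.15 ± 0.11 (adjusted p = 3.53e-08). Of 22 S phase genes 22 rose at 24 h, 11 at 48 h and 1 at 96 h (Mcm2, a subunit of the replicative helicase, 0.35 ± 0.08, adjusted p = 0.0173), with medians of 0.86, 0.30 and 0.22. At 24 h Mcm2 changed by 0.86 ± 0.08 (adjusted p = 3.99e-08) and Uhrf1, a factor that maintains DNA methylation, by 1.34 ± 0.13 (adjusted p = 3.11e-08). The 48 genes themselves had medians of 1.28, 0.50 and 0.44 on the same scale.

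Of 19 tested regulators of the step into mitosis, from a list of 20, 13 rose and 1 fell at 24 h, 7 rose and 1 fell at 48 h and 3 rose and 0 fell at 96 h. Of all tested genes 18.9% were called lower at 24 h, 6.50% at 48 h and 3.02% at 96 h, which is the background for the falling genes of this and the next lists. The kinases and regulators Nek2, which splits centrosomes, and Gtse1 rose by 1.62 ± 0.12 and 1.56 ± 0.13 at 24 h. The gene that fell was Wee1, the kinase that holds Cdk1 inactive, which is named here after its values were seen: it was -0.51 ± 0.09 (adjusted p = 0.000116) at 24 h, -0.39 ± 0.09 (adjusted p = 0.00854) at 48 h and -0.28 ± 0.09 (adjusted p = 0.0940) at 96 h. In the list of MuvB, DREAM and B-Myb genes 4 of 12 rose and 1 fell at 24 h, 1 rose and 1 fell at 48 h, and 0 changed at 96 h. Mybl2, the B-Myb gene, rose by 1.43 ± 0.16 and E2f4, a repressive E2F factor, by 0.59 ± 0.06 at 24 h, whereas the pocket protein gene Rbl2, named after its values were seen, had -0.40 ± 0.06 (adjusted p = 1.85e-05). Of 18 condensin and cohesin genes 13 rose at 24 h, 5 at 48 h and 5 at 96 h and 0 fell, with the smallest p for the condensin subunits Smc4 (0.97 ± 0.07, adjusted p = 2.04e-09) and Ncapd2 (1.001 ± 0.08, adjusted p = 4.62e-09) at 24 h. Of 16 genes of the anaphase-promoting complex and its partners 5 rose and 1 fell at 24 h, and 0 rose and 1 fell at 48 and at 96 h. The subunits Anapc7 and Cdc23 changed by 0.37 ± 0.05 (adjusted p = 4.30e-06) and 0.29 ± 0.05 (adjusted p = 0.000107) at 24 h. Cdc23 is the gene that shares words with Kif20a, so its count is uncertain in the way noted for Kif20a. The one that fell, Anapc5, a subunit of the complex named after its values were seen, had -0.25, -0.24 and -0.27 at the 3 times.

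**Figure D5:**
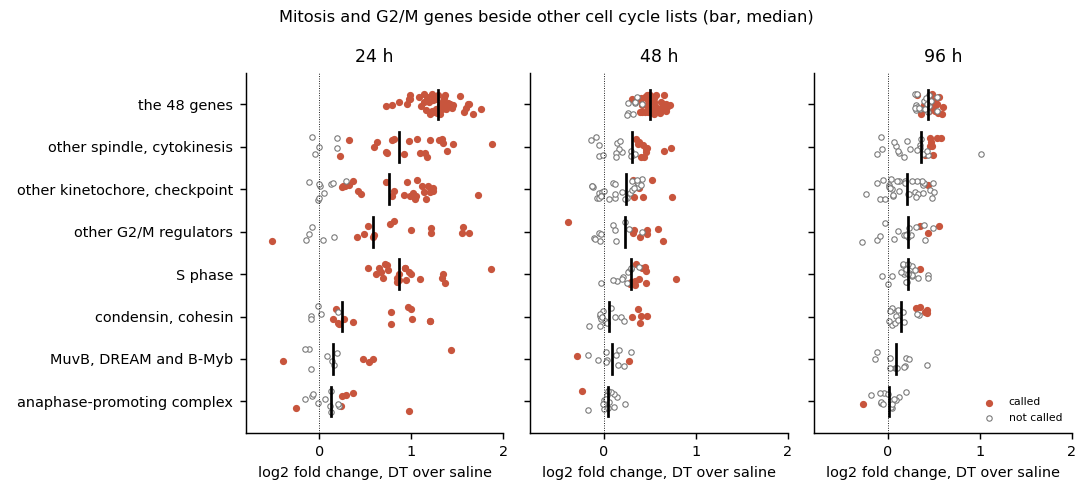
Log2 fold change of DT over saline (horizontal axis) for the 48 genes and for each tested gene of the 7 further lists (rows; bars give medians) at 24, 48 and 96 h (panels), filled where called. At 24 h the 48 genes have a median of 1.28 and the S phase genes one of 0.86, and the lists of MuvB genes and of the anaphase-promoting complex have medians of 0.15 and 0.13.

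Markers of other cells were measured in the same libraries. Epithelial markers, 10 of 10 of which passed the filter, summed to 7041 to 9375 CPM over all libraries, with 3 of 10 called higher and 2 lower at 24 h and 0 called at 48 and 96 h. The highest of these sums was in DT replicate 3 at 24 h, which was also the highest of its group for 41 of the 48 genes. Fibroblast markers summed to 3584 to 4215 CPM in saline and 2999.7 to 6983 CPM in DT libraries at 24 h, with 2 of 10 called higher, beside 19.9% of all tested genes, and 10 of 10 above 0 (median 0.53). Their sums were 3768 to 7591 CPM and 7310.2 to 11829 CPM at 48 h, and 2871 to 10255 CPM and 5603 to 10361 CPM at 96 h, with 0 called at both times. Above 0 were 10 of 10 fibroblast markers at 48 h (median 0.55) and 7 of 10 at 96 h (median 0.04). Replicates 1 to 4 of DT at 24 h had fibroblast sums of 2999.7, 6895, 6983 and 4323 CPM beside median log2 ratios over the 48 genes of 1.20, 1.29, 1.53 and 1.14. Endothelial markers summed to 235 to 757 CPM and macrophage markers to 94.4 to 520 CPM, with 1 of 8 endothelial markers higher at 24 and at 48 h and 1 of 10 macrophage markers lower at 48 h. Of the macrophage markers 5 of 10 were above 0 at 24 h (median -0.02). None was above 0 at 48 h (median -0.59) or at 96 h (median -0.27). Between 24 and 96 h in saline 8 of 8 endothelial markers rose, 7 of 10 macrophage markers fell and 2 of 10 fibroblast markers rose (10 of 10 above 0, median 0.95), beside 0 of the 48 genes called. Markers of T, NK and B cells were at or near 0, with at most 0.895 CPM in sum, 0 of 9 past the filter and Nkg7 at 0 in all 24 libraries. The part of these cells in the differences of the 48 genes was not tested at any time.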

How the data were processed

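PolyA RNA from 24 samples in 6 groups of 4 was analysed per gene. Counts are whole numbers of reads that align uniquely to a gene model, as deposited by the authors and described per the file headers. The deposited RPKM values were scaled by the authors with a size factor per library, per the file headers, and served for levels per length only; each equalled count times a gene and a library factor, with a largest relative deviation of 7.1e-15. Alignment with GSNAP to GRCm38 is named in the submitters' processing notes, while the sources used here give no annotation, strand use or duplicate handling. Of 36528 Entrez gene rows 85.0% matched RefSeq names.

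Genes were filtered with filterByExpr and tested with edgeR 4.0.16 (R 4.3.3; TMM scaling, 1 fit of 6 group means over 24 libraries, quasi-likelihood test, 18 residual degrees of freedom, common coefficient of variation 0.120), with Benjamini-Hochberg adjustment over 17468 genes and a threshold of 0.05. Depth was 10888654 to 27707554 counts per library, and libraries of a group differed by more than counting error (chi-square per degree of freedom at least 4.24). Alternatives were other scalings and filters, DESeq2 1.42.0, limma 3.58.1 voom, a replicate block, the compared libraries alone, and each library left out in turn. The scripts were tested on simulated data. The 48 genes and all lists were chosen with earlier results of these data known. Full values are given for the gene with the smallest p at 24 h in each function group, those with the largest and smallest change at 24 h, the 3 with the smallest p at 96 h, and those whose interaction calls differ most from their group (Mki67 and Ccnb1 were added after their values were seen). Values at 48 h are also printed for Plk1 and Ect2, which were called at that time although their groups overlapped. Of each further list the 2 genes with the smallest p at 24 h are named. Windows for promoter words were taken from RefSeq on GRCm38.p6, and shared 50-base words from coding transcripts of the reference annotation.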

Additional observations from a re-analysis of the deposited data

Results flagged for a closer look

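The DT effect differed between times for most of the 48 genes, by interaction tests in edgeR (40 genes between 24 and 48 h and 45 between 24 and 96 h). Among genes with values given in full, the effect at 48 h minus that at 24 h was -0.84 for Ccnb2, -0.83 for Cdca8, -0.81 for Bub1, -1.11 for Spc24, -0.64 for Cenpa, -0.69 for Cenpe, -0.82 for Kif11, -0.69 for Kif23, -0.99 for Dlgap5, -0.80 for Anln and -0.92 for Cdc20 (log2). With 1 library left out, these calls between 24 and 48 h held in 7 of 16 fits for Cenpa. They held in 10 for Cenpe, in 12 for Anln and in all 16 for the others listed. The effect at 96 h minus that at 24 h was -0.96 for Ccnb2, -1.04 for Cdca8, -0.96 for Bub1, -1.47 for Spc24, -0.80 for Cenpa, -0.63 for Cenpe, -0.78 for Kif11, -0.84 for Kif23, -1.18 for Dlgap5, -0.92 for Anln and -1.06 for Cdc20.

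Some libraries lay far from the other 3 of their group, by Dixon's test of the gap over the range at its 95% critical value. For single genes this held in 14 of 288 groups, over 12 genes, and chance alone marks about 1 in 20 groups. In DT replicate 3 at 24 h it was the highest value of Cdk1 (77.7 CPM), Aurkb (36.9 CPM), Ttk (21.3 CPM), Nuf2 (21.03 CPM), Kif22 (53.4 CPM) and Sgo1 (12.8 CPM). In saline at 24 h it was the highest value of Plk1 (28.7 CPM, replicate 3) and of Spc25 (6.09 CPM, replicate 4), and the lowest of Incenp (31.1 CPM, replicate 2). In saline at 48 h it was the highest value of Dlgap5 (13.5 CPM, replicate 2) and the lowest of Pttg1 (11.8 CPM, replicate 1). In saline at 96 h it was the lowest value of Aurkb (9.76 CPM) and Kif15 (10.2 CPM), both in replicate 3, and the highest of Ttk (9.08 CPM, replicate 2). For the median log2 ratio over the 48 genes it was the lowest saline library at 48 h, replicate 1, at -0.0925.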

How the results depend on the processing

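The 48 genes stayed higher at 24 h in every alternative except that Cks2 missed the threshold without saline replicate 3, and no median of the 48 changed direction (24 h 1.20 to 1.34, 48 h 0.46 to 0.57 and 96 h 0.37 to 0.50 with 1 library left out). At 48 h 25 genes kept their call in every alternative without the block, and at 96 h 7 (Ccnb2, Cenpa, Cenpe, Cenpf, Kif11, Kif22 and Kif23). With 1 library left out the count at 96 h ranged from 9 to 32. In such fits the difference from saline was called smaller at 48 h than at 24 h for 27 to 44 genes. It was called smaller at 96 h than at 24 h for 38 to 46 genes. Of the 40 and 45 calls with all libraries, 27 and 37 were kept in every such fit. In saline, 48 h against 24 h, 1 gene was called higher with limma voom and 1 with the compared libraries alone. Same-numbered saline and DT libraries did not deviate together (12 pairs, correlations of -0.36 to 0.13, 2 over 0.1, and 0 saline libraries closest to their own number). Whether they were matched is not given in the sources used here, and these correlations cannot exclude it. With the replicate number as a block 25 genes were called higher at 48 h, 7 at 96 h, and 17 differences were smaller at 48 h than at 24 h. Of the 45 differences smaller at 96 h than at 24 h, 33 kept their call with the block. The cause was not tested. Cks2, at 1.27 to 3.17 CPM, and Ccnb1, at 1.95 to 8.28 CPM, had standard errors of 0.21 at 24 and 48 h.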
